A study of Arabidopsis thaliana with 12 samples.

Results

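UDP-glycosyltransferases (UGTs) and glutathione transferases (GSTs) were followed in sorted Arabidopsis root cells. The members were every gene with a probe set of its own whose symbol, in the annotation of the array, begins with UGT and a digit or with GSTU, GSTF, GSTL, GSTT or GSTZ. UGT78D2 was left out. This gave 59 of the 13513 genes so named, 46 UGTs and 13 GSTs, each with a single probe set. Members of these families whose probe sets carry another name, several genes or none were not analysed here, apart from a few described at the end.

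The samples were 12 single-colour ATH1 arrays of total RNA from root tips of seedlings of 5 days, ecotype C24. All plants were of wild-type genetic background per the titles and carried J0571, an enhancer trap whose GAL4 and GFP are expressed in root ground tissue, and the GFP-bearing cells were sorted. The control was J0571 alone. In each of the other groups the trap's GAL4 activated a UAS construct for BLJ, for JKD or for SCR, which encode transcription factors that pattern this tissue, and each of the 4 groups had 3 biological replicates. How many independent lines carried each UAS copy is not given in the sources used here. Each comparison asks how the members' transcripts differ in these cells when 1 factor is driven there, or between the lines of different factors.

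UGTs attach a sugar from a UDP-sugar to small acceptors, among them hormones, phenylpropanoids, glucosinolate precursors and foreign compounds. GSTs join glutathione to reactive or foreign molecules or bind them as carriers, and the plant-specific tau class (GSTU) is large and often induced by stress. Conjugates of both kinds are commonly moved into the vacuole, so that the families together form part of the detoxification and hormone-inactivation machinery of the plant.

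Pairwise Pearson's r of the arrays over probe sets ran from 0.916 to 0.992, and no columns were identical. The probe set of BLJ averaged 0.804 on the BLJ arrays against 0.923 in the controls, and that of JKD 0.838 on the JKD arrays against 0.859. Neither was raised on the arrays labelled for it, whether these probe sets detect the driven transcripts was not tested, and the SCR probe set is not named here. The groups are therefore called by their labels. Of the ground tissue markers listed, 4 of 11 could be named. Their summed level was 3.46 to 4.22 on the control arrays, 4.52 to 4.83 in BLJ, 4.32 to 4.46 in JKD and 4.05 to 4.41 in SCR. Of these markers COR1 (AT1G09750), a cortex marker, rose in BLJ (log2 fold change 0.47, adjusted p = 0.0164), from a mean of 1.37 to 2.15. The others, EN7 (AT4G28100), CO2 (AT1G62500) and COR3 (AT1G62510), had −0.05, −0.02 and 0.04 in BLJ, and none was called. EN7 had 0.02 in JKD and 0.04 in SCR, also not called. SCR, the Casparian strip genes CASP1 to CASP5 and MYB36 are not among the named markers, so these endodermis genes could not be checked. Of the epidermis and root hair markers 2 of 5 were named, with a summed level of 1.61 to 2.18, 1.75 to 1.84, 1.55 to 1.57 and 1.42 to 1.53 in the control, BLJ, JKD and SCR groups. The root cap had 1 of 4 and the stele 0 of 6. Heat shock genes set 3 arrays apart, by a list chosen after an earlier analysis had pointed to those arrays. Over 12 such genes the mean log2 value reached 1.01 on control 3, 0.877 on BLJ 1 and 1.22 on BLJ 3, called the heat-high arrays here, and ranged from 0.0371 to 0.575 on the other 9. The part of these markers and heat shock genes in the results below was not tested, and values without those arrays are given with each called difference and with the main values that were not called.

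Levels are quantile-normalized intensities in arbitrary units, and each list of values runs from replicate 1 to 3. Fold changes are on a log2 scale after an offset of 0.703 was added, which understates changes of dim probe sets. A member was called at an adjusted p under 0.05 in limma, adjusted over all 15922 probe sets tested. Of the 59 members, 48 passed the filter on low values, 37 UGTs and 11 GSTs, and 32 lay above the median probe set. The other 11 had levels between 0.631 and 0.815 on every array: GSTF4, GSTU23, UGT71B6, UGT73C1, UGT73C2, UGT73D1, UGT76E11, UGT78D1, UGT84B1, UGT84B2 and UGT85A5. They include an abscisic acid glucosyltransferase (UGT71B6), an auxin glucosyltransferase (UGT84B1) and a flavonol rhamnosyltransferase (UGT78D1). With no filter none of the 11 was called in a line against the control. The filter lay between UGT73C2, with a mean of 0.729, and UGT76E1, with 0.737.

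In the BLJ line 6 members fell and 1 rose against the control, 7 of the 48 tested (14.6%), while 4.26% of all probe sets tested were called in this comparison (1.82% higher and 2.44% lower). The members that fell were 2 tau class GSTs, GSTU27 and GSTU25, and the UGTs UGT73B1, UGT76E2, UGT88A1 and UGT84A1. UGT72B3 rose. The cells of each sample were pooled, so fewer cells of a type and less RNA per cell cannot be told apart. The median log2 fold change was −0.03 over the 48 members and 0.00 over all probe sets, and 29 of the 48 lay below 0. Scaling changed the split of these calls. The deposited values gave 14 called members, 3 higher and 11 lower, and arrays centred on their medians gave 7, 4 higher and 3 lower. Over all probe sets these scalings called 18.5% and 15.9%. The members' 14 of 48 on the deposited values lay above that share, and their 7 of 48 (14.6%) after centring lay close to it. In the BLJ line 2 members lay above all controls without overlap and 10 below, beside 10.6% and 10.4% of all probe sets. The count of 7 became 1 without control 1, BLJ 1 or BLJ 3, and 4 without BLJ 2 or JKD 1. Over all 15922 probe sets the calls went from 678 to 352, 256 and 186 without control 1, BLJ 1 or BLJ 3. Without BLJ 2 or JKD 1 they were 603 and 497. Leaving out control 3, BLJ 1 and BLJ 3 together leaves 1 BLJ array.

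GSTU27 (AT3G43800) measured 5.64, 5.81 and 6.68 on the control arrays and 4.13, 3.69 and 4.06 in BLJ. It measured 6.61, 5.66 and 5.66 in JKD and 5.21, 5.66 and 5.37 in SCR. All 3 BLJ arrays were below all 9 others. The log2 fold change in BLJ against the control was −0.53 ± 0.10 (SE), with an adjusted p of 0.0113, and this call held with each of the 12 arrays left out (−0.58 to −0.47). Without control 3, BLJ 1 and BLJ 3 it was −0.56 (adjusted p = 0.103). The direction depended on the scaling, since it was −0.02 with the deposited values and 0.03 with median-centred arrays.

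GSTU25 (AT1G17180) encodes an enzyme known to conjugate the explosive 2,4,6-trinitrotoluene. Its levels were 10.7, 11.2 and 12.6 in the control and 8.26, 8.59 and 8.65 in BLJ. In JKD they were 10.4, 11.4 and 9.66, and in SCR 11.0, 10.3 and 10.6. The BLJ arrays again lay below every other array. The log2 fold change was −0.40 ± 0.10 (adjusted p = 0.0442), and the call was lost with any 1 of the 12 arrays left out (−0.45 to −0.34, adjusted p up to 0.136). It was −0.32 without control 3, BLJ 1 and BLJ 3 (adjusted p = 0.296), and it turned to 0.16 with the deposited values and 0.21 with median-centred arrays.

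GSTU22 (AT1G78340) had the lowest fold change of the GSTs in BLJ without being called. It measured 6.57, 8.10 and 4.60 in the control, 2.44, 4.31 and 3.04 in BLJ, 5.61, 7.34 and 3.89 in JKD and 8.27, 7.39 and 5.61 in SCR. The BLJ arrays did not overlap the controls, but both groups were widely spread. The log2 fold change was −0.84 ± 0.23 (adjusted p = 0.0618) against the control and −0.99 ± 0.23 (adjusted p = 0.0541) against SCR. Against the control it was −0.35 with the deposited values, −0.30 with median-centred arrays and −0.68 (adjusted p = 0.394) without the heat-high arrays, which gave −0.63 (adjusted p = 0.474) against SCR.

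Among the UGTs that fell, UGT73B1 (AT4G34138) measured 1.36, 1.08 and 1.31 in the control and 0.993, 0.844 and 0.930 in BLJ. The groups did not overlap, and the JKD values (1.31, 1.21 and 1.37) and SCR values (1.27, 1.35 and 1.07) overlapped the controls. The log2 fold change was −0.26 ± 0.06 (adjusted p = 0.0346). It was not called without control 1, control 3, any BLJ array or JKD 1 (−0.34 to −0.23, adjusted p up to 0.125), nor after median centring (−0.15), and leaving out the heat-high arrays gave −0.31.

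UGT76E2 (AT5G59590) was lower in all 3 lines than in the controls. The control arrays read 1.32, 1.05 and 1.14, the BLJ arrays 0.902, 0.902 and 0.964, the JKD arrays 0.831, 0.967 and 0.956 and the SCR arrays 0.956, 0.972 and 0.930, so that no line array reached the lowest control. It fell in BLJ (−0.20 ± 0.05, adjusted p = 0.0329) and in JKD (−0.21 ± 0.05, adjusted p = 0.0408), and in SCR had −0.17 ± 0.05 (adjusted p = 0.113). All 3 differences share the same control arrays, and control 1 was the brightest. With median-centred arrays neither the BLJ nor the JKD difference was called (BLJ −0.10, adjusted p = 0.0812, and JKD −0.11, adjusted p = 0.0599). Without control 2 it was also called in SCR (−0.23, adjusted p = 0.0392). The BLJ call was lost without control 1 or any BLJ array (−0.26 to −0.15, adjusted p up to 0.111). The JKD call was lost with any array left out other than control 2 or BLJ 2 (−0.26 to −0.15, adjusted p up to 0.175). Without the heat-high arrays the values were −0.23 in BLJ and −0.21 in JKD, neither called.

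UGT88A1 (AT3G16520) measured 1.02, 0.885 and 0.934 in the control, 0.768, 0.808 and 0.812 in BLJ, 0.824, 0.827 and 0.785 in JKD and 0.846, 0.912 and 0.896 in SCR. The BLJ and JKD arrays lay below the controls and the SCR arrays, while SCR overlapped the controls. It fell in BLJ (−0.14 ± 0.03, adjusted p = 0.0219) and in JKD (−0.12 ± 0.03, adjusted p = 0.0466). Only control 1 was above 1, and with intensities under 1 set to 1 the value was −0.009 in both lines, neither called. The BLJ call was lost without control 1, BLJ 1 or BLJ 3 (−0.17 to −0.11, adjusted p up to 0.0944). The JKD call was lost without any 1 array but control 2 (−0.15 to −0.09, adjusted p up to 0.165). The values without the heat-high arrays were −0.13 in both lines, and neither was called.

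UGT84A1 (AT4G15480), which makes glucose esters of hydroxycinnamic acids, measured 0.907, 0.942 and 0.905 in the control and 0.772, 0.818 and 0.822 in BLJ. JKD read 0.892, 0.947 and 0.899, and SCR 0.804, 0.889 and 0.823. The BLJ and SCR arrays were below every control, and JKD overlapped the controls. All values of UGT84A1 were under 1, so its change was 0 with intensities under 1 set to 1. The fold change in BLJ was −0.10 ± 0.03 (adjusted p = 0.0402), a call lost without 9 of the 12 arrays, all but JKD 2, SCR 1 and SCR 2 (−0.11 to −0.09, adjusted p up to 0.162). Leaving out the heat-high arrays gave −0.10, which was not called.

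UGT72B3 (AT1G01420), a relative of the monolignol and xenobiotic glucosyltransferase UGT72B1, was the member that rose. It measured 0.708, 0.733 and 0.680 in the control, 0.856, 0.776 and 0.814 in BLJ, 0.810, 0.750 and 0.818 in JKD and 0.761, 0.705 and 0.758 in SCR. Both the BLJ and JKD arrays were above every control. These levels were low: the control mean of 0.707 lay under the filter's threshold of 0.735, and the member lay below the median probe set. All its values were under 1, so its change was 0 with intensities under 1 set to 1. The fold change was 0.11 ± 0.03 (adjusted p = 0.0304) in BLJ and 0.09 ± 0.03 (adjusted p = 0.0859) in JKD. The BLJ call was lost without control 1, control 3, BLJ 1 or BLJ 3 (0.09 to 0.12, adjusted p up to 0.120) and with the deposited values (0.04, adjusted p = 0.348), and the value was 0.06 without the heat-high arrays.

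**Figure D1:**
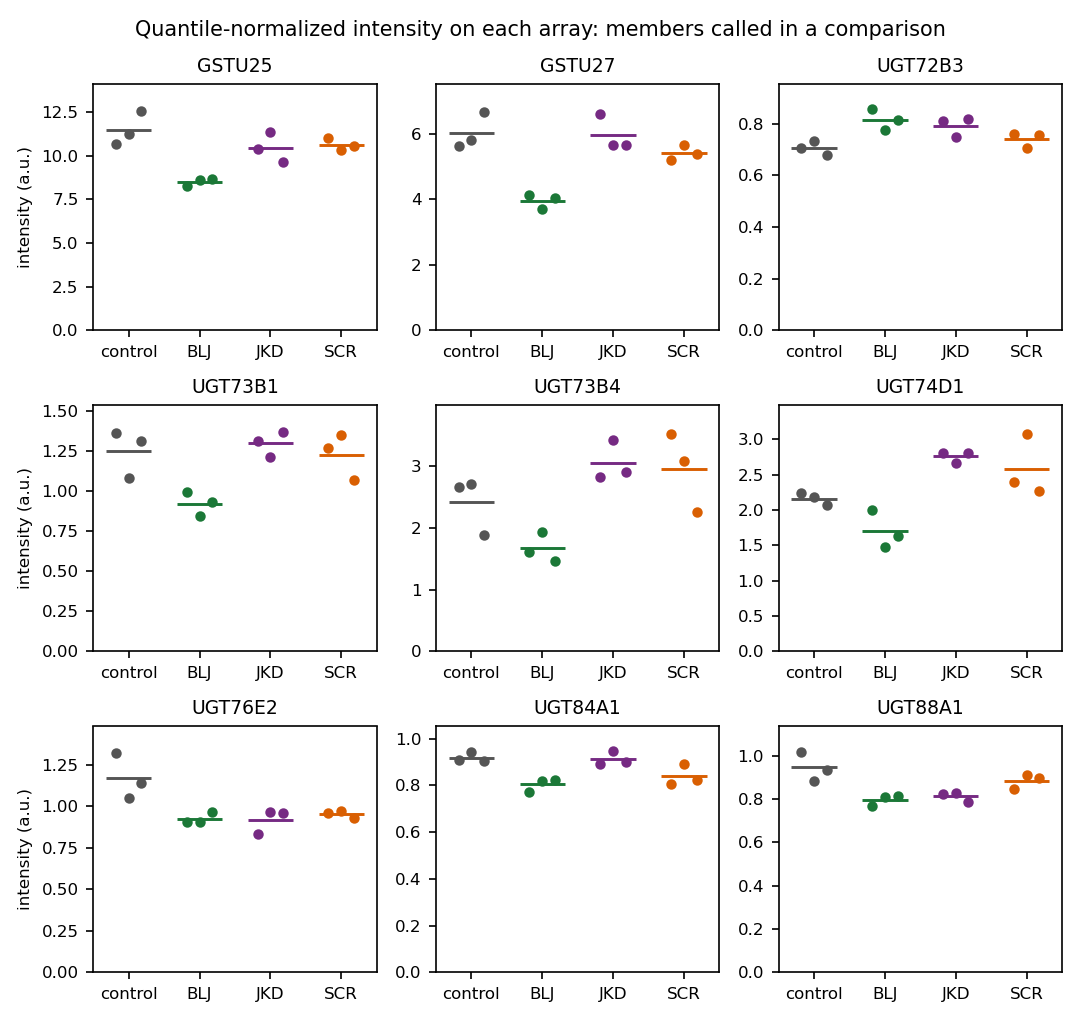
Quantile-normalized intensity in arbitrary units (y axis, from 0) of the 9 members called in at least 1 comparison, by group (x axis); each point is 1 array, in replicate order, and each bar the mean of 3. The BLJ arrays of GSTU27 (3.69 to 4.13) and GSTU25 (8.26 to 8.65) lie below all other arrays, and those of UGT73B4 and UGT74D1 lie below all JKD and SCR arrays.

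Among the UGTs that were not called in BLJ, UGT76B1 (AT3G11340), which glucosylates isoleucic acid, salicylic acid and N-hydroxypipecolic acid, had the highest fold change. It measured 4.18, 4.14 and 5.87 in the control and 7.06, 5.59 and 7.68 in BLJ. The groups overlapped through control 3 and BLJ 2. In JKD it measured 4.06, 4.84 and 5.20, and in SCR 4.97, 4.61 and 5.76. The fold change in BLJ was 0.47 ± 0.15 (adjusted p = 0.0959). It was called with the deposited values (0.97, adjusted p = 0.00427) and with median-centred arrays (1.02, adjusted p = 0.00462). Leaving out control 3, BLJ 1 and BLJ 3 gave 0.38. UGT71C1 (AT2G29750), with 0.17 ± 0.11 (adjusted p = 0.446), and UGT74B1 (AT1G24100), a glucosyltransferase of glucosinolate synthesis, with 0.16 ± 0.05 (adjusted p = 0.105), came next. Both were called with the deposited values (0.40 and 0.29) and with median-centred arrays (0.45 and 0.33), and without the heat-high arrays they had −0.04 and 0.13. The highest GST fold changes in BLJ were those of GSTU26 (AT1G17190, 0.19 ± 0.13), GSTL3 (AT5G02790, 0.09 ± 0.04), a thiol transferase of the lambda class, and GSTU18 (AT1G10360, 0.04 ± 0.07).

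Among UGT subfamilies with 3 or more tested members, UGT73 was the one with every tested member below the control in BLJ. Its 4 tested members of 7 had a median of −0.25 in BLJ, 0.02 in JKD and 0.05 in SCR. UGT73B1 was called in BLJ, and UGT73B4 (−0.39 ± 0.14, adjusted p = 0.139), UGT73B5 (−0.23 ± 0.09, adjusted p = 0.193) and UGT73C7 (−0.04 ± 0.03, adjusted p = 0.449) were not. All 4 stayed below 0 under both other scalings, but the median shrank to −0.12 with the deposited values and −0.08 with median-centred arrays, where UGT73B4 had −0.09 and −0.04. Without the heat-high arrays UGT73B4 had −0.36 (adjusted p = 0.431), and all tested UGT71 and UGT85 members were also below 0. The medians of the other such subfamilies in BLJ ran from −0.08 (UGT74) to 0.04 (UGT72), and that of UGT74 turned to 0.04 with the deposited values and 0.08 with median-centred arrays. The 10 tested GSTU members had a median of 0.00 in BLJ, 6 above 0 and 4 below, with a range from −0.84 to 0.19.

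UGT73B5 (AT2G15480), known from redox and pathogen responses, measured 1.37, 1.22 and 1.35 in the control, 0.929, 1.18 and 0.955 in BLJ, 1.30, 1.58 and 1.11 in JKD and 1.65, 1.49 and 1.14 in SCR. The BLJ arrays did not overlap the controls but overlapped both other lines.

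**Figure D2:**
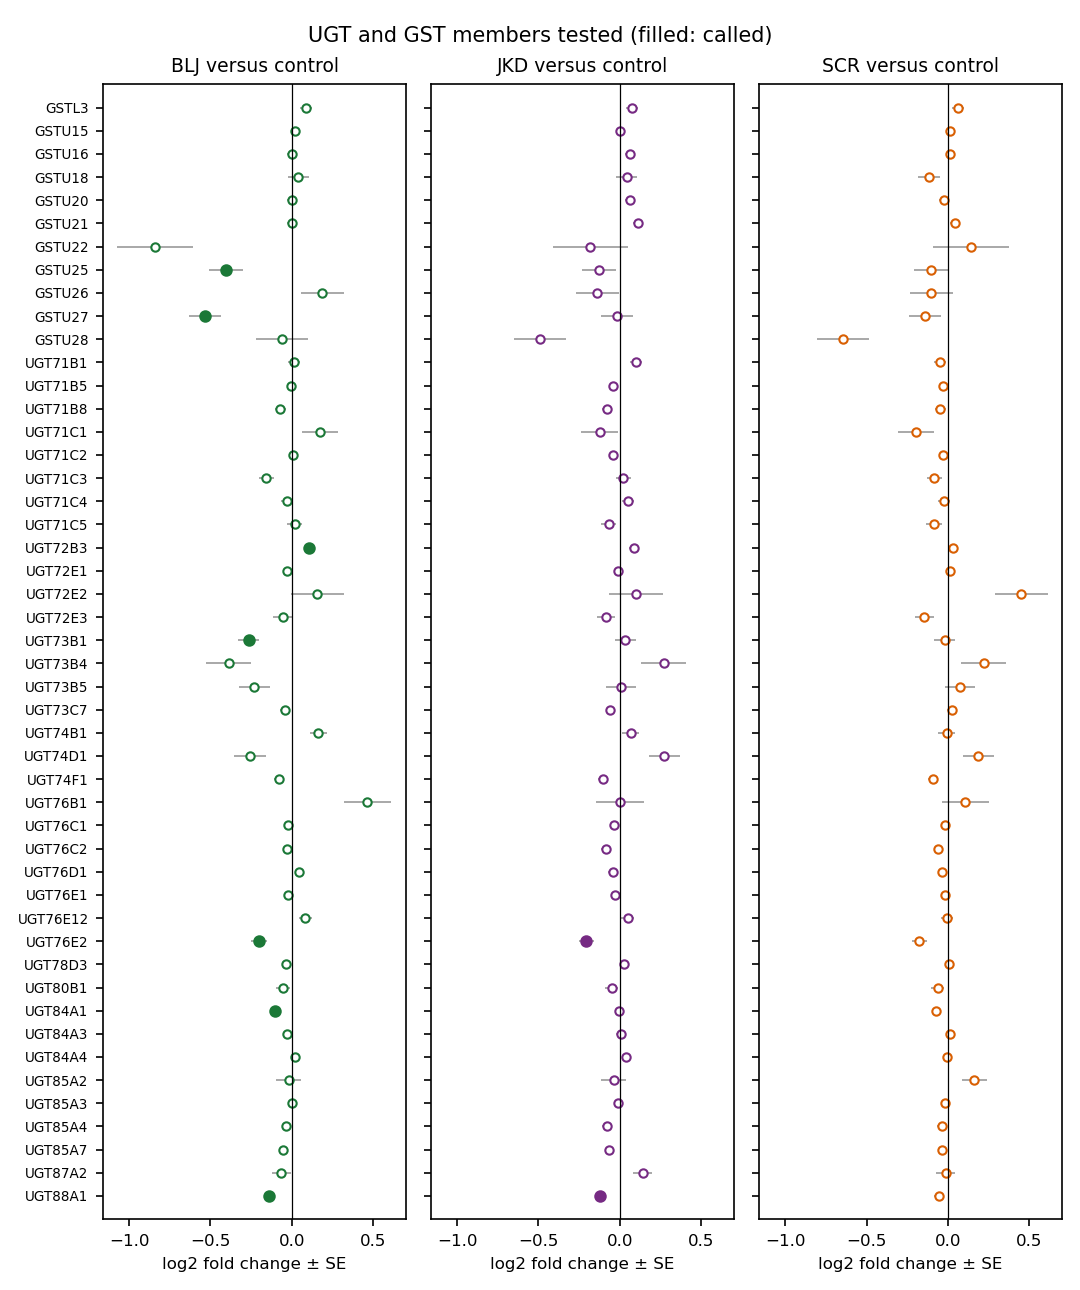
Log2 fold change against the control (x axis, point, with SE as a grey bar) of the 48 members tested (y axis) in the BLJ, JKD and SCR lines; filled points are called at an adjusted p under 0.05. In BLJ 7 points are filled, 6 of them below 0, in JKD 2 and in SCR 0.

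In the JKD line 2 members fell against the control, UGT76E2 and UGT88A1, and none rose. This was 4.17% of the 48, beside 2.74% of all probe sets tested (0.867% higher and 1.88% lower). Of the 48, 26 were below 0, and 16 passed an unadjusted p of 0.05, as did 19.1% of all probe sets. The median was −0.01, and it was 0.01 over all probe sets. Without overlap, 8 members lay above and 9 below all controls, beside 11.8% and 11.3% of all probe sets. The count rested on the scaling: 20 were called on the deposited values, 6 higher and 14 lower, and 15 after median centring, 10 higher and 5 lower. The corresponding counts over all probe sets were 4016 and 3847, or 25.2% and 24.2%. The count of 2 became 0 without control 1, control 3, BLJ 1, BLJ 3, any JKD array, SCR 2 or SCR 3. It was 1 without BLJ 2, and 4 without control 2. Without SCR 1 it was also 1, but this was another member, called higher. Over all probe sets the 437 calls became between 7 (without JKD 1) and 680 (without control 2).

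The UGTs highest in JKD were UGT74D1 (0.27 ± 0.10, adjusted p = 0.139), UGT73B4 (0.27 ± 0.14, adjusted p = 0.305) and UGT87A2 (AT2G30140, 0.14 ± 0.06, adjusted p = 0.208), the last known for an effect on flowering time. UGT74D1 and UGT73B4 did not overlap the controls. Both were called higher with the deposited values (0.61 and 0.63) and with median-centred arrays (0.66 and 0.68). UGT87A2 was too (0.24 and 0.29). Without the heat-high arrays UGT74D1 had 0.25 and UGT73B4 0.14, and neither was called. UGT71C1 (−0.12 ± 0.11, adjusted p = 0.585) was among the 3 lowest UGTs together with the called pair. The GSTs ran from GSTU28 (AT1G53680, −0.49 ± 0.16, adjusted p = 0.114), GSTU22 (−0.18) and GSTU26 (−0.14) to GSTU20 (AT1G78370, 0.06), GSTL3 (0.08) and GSTU21 (AT1G78360, 0.11 ± 0.03, adjusted p = 0.0674). GSTU20 is a jasmonate and light signalling partner of FIN219. GSTU21 measured 0.882, 0.921 and 0.824 in JKD and 0.738, 0.780 and 0.755 in the control, with no overlap. GSTU22 and GSTU26 turned above 0 with the deposited values (0.38 and 0.31) and with median-centred arrays (0.43 and 0.36), as did UGT71C1 (0.06 and 0.12), and none of these was called. GSTU27 had −0.01 ± 0.10 in JKD, but 0.53 with the deposited values (adjusted p = 0.0497) and 0.58 with median-centred arrays (adjusted p = 0.0464). All 4 tested UGT85 members were below 0 in JKD, with a median of −0.05, and none was called. With the deposited values, and also with median-centred arrays, 3 of these 4 were below 0.

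In the SCR line limma called 0 of the 48 members, where 0.396% of all probe sets were called (0.17% higher and 0.226% lower). An unadjusted p of 0.05 was passed by 7 members, or 14.6%, and by 16.6% of all probe sets. Without overlap, 3 lay above and 8 below all controls, beside 9.55% and 9.53% of all probe sets. Leaving out control 2 gave 1 call, UGT76E2, beside 276 over all probe sets, and no other array gave any member. The median was −0.02 over the members and 0.00 over all probe sets, and 32 of 48 were below 0, as were 7660 of the 15922 probe sets. All 8 tested UGT71 members were below 0, with values from −0.20 (UGT71C1) to −0.02 (UGT71C4) and a median of −0.05. With the deposited values 7 of the 8 were below 0, and with median-centred arrays 6.

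The GST farthest from the control in SCR was GSTU28. It measured 2.12, 2.62 and 3.38 in the control, 2.18, 2.56 and 2.88 in BLJ, 1.84, 2.17 and 1.20 in JKD and 1.27, 1.31 and 1.83 in SCR. The SCR arrays lay below every control and BLJ array, and the JKD arrays overlapped the controls at control 1 and the SCR arrays. The fold change in SCR was −0.65 ± 0.16 (adjusted p = 0.0857). It was −0.39 with the deposited values, −0.36 with median-centred arrays and −0.50 without the heat-high arrays. UGT72E2 (AT5G66690), which glucosylates the monolignols coniferyl and sinapyl alcohol, had the highest value of the UGTs in SCR. It measured 3.89, 3.67 and 3.09 in the control and 4.32, 5.55 and 5.54 in SCR, without overlap. In BLJ it measured 5.39, 3.22 and 3.72 and in JKD 4.78, 3.27 and 3.62, and in each of these the first replicate was the highest. The fold change in SCR was 0.45 ± 0.16 (adjusted p = 0.196), and 0.38 without the heat-high arrays. In BLJ it went from 0.16 to −0.19 without them. UGT72E3 (AT5G26310), of the same monolignol group, had −0.14 ± 0.06 (adjusted p = 0.235) and did not overlap the controls either. UGT72E1 (AT3G50740) had 0.02 ± 0.02. The other extremes in SCR were UGT73B4 (0.22), UGT74D1 (0.19), UGT76E2 (−0.17) and UGT71C1 (−0.20) among the UGTs, and GSTU22 (0.14), GSTL3 (0.06), GSTU21 (0.05), GSTU18 (−0.12) and GSTU27 (−0.14) among the GSTs. None of these was called.

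**Figure D3:**
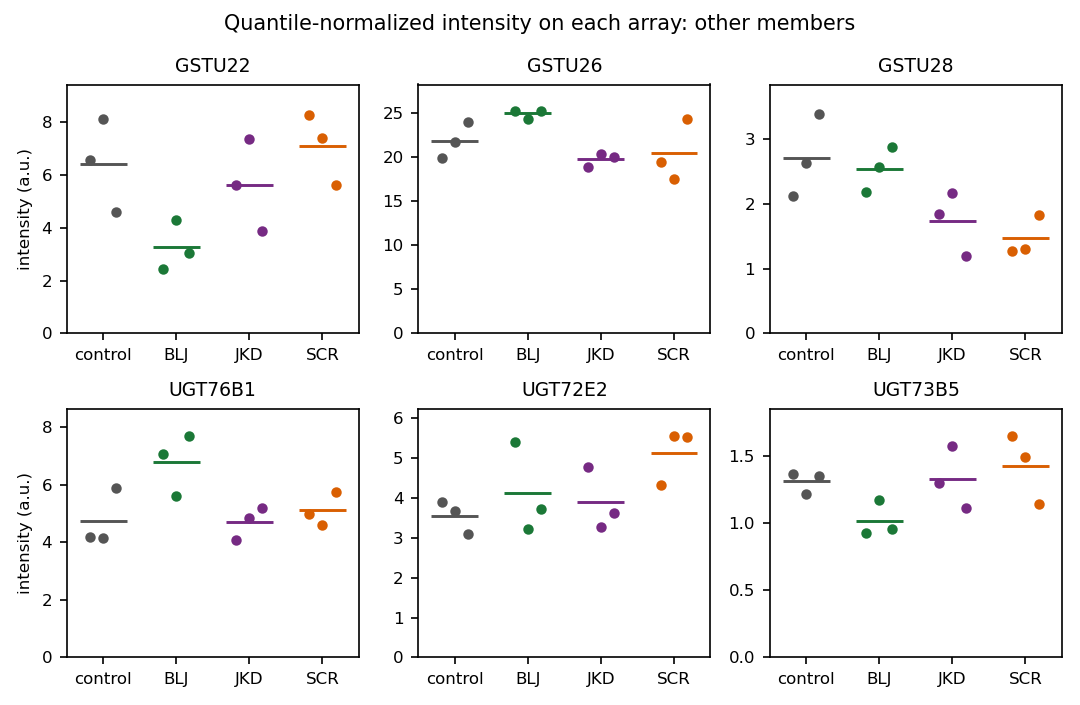
Quantile-normalized intensity in arbitrary units (y axis, from 0) of 6 further members, by group (x axis); each point is 1 array, in replicate order, and each bar the mean of 3. GSTU22 is lowest in BLJ (2.44 to 4.31), GSTU28 in SCR (1.27 to 1.83) with JKD overlapping it, and UGT72E2 spreads from 3.22 to 5.39 within BLJ.

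Tested directly against each other, the lines differed in 4 members between BLJ and JKD and in 2 between BLJ and SCR, and every one of these was lower in BLJ. The 4 were 8.33% of the 48, beside 1.71% of all probe sets (1.02% higher and 0.697% lower in BLJ). The 2 were 4.17%, beside 1.55% (0.973% higher and 0.578% lower). After median centring the counts were 1 higher and 6 lower in BLJ against JKD and 1 higher and 0 lower against SCR. On the deposited values they were 0 higher and 5 lower, and 1 of each. Against SCR, neither of the 2 reported calls was among these. GSTU28 was called higher in BLJ with median-centred arrays (0.70, adjusted p = 0.0152) and on the deposited values (0.68, adjusted p = 0.0173). UGT73B1 was called lower on the deposited values (−0.24, adjusted p = 0.0456). As reported, GSTU28 had 0.58 ± 0.16 against SCR (adjusted p = 0.0906), without overlap. Over all probe sets centring called 1.95% and 2.21%, and the deposited values 2.15% and 2.07%. The count between BLJ and JKD became 0 without BLJ 3 or JKD 1 and 1 without JKD 2 or JKD 3. Over all probe sets the 273 calls became 81, 78, 124 and 109 in these fits. The count between BLJ and SCR became 0 without control 2, BLJ 3, JKD 1, JKD 2, SCR 1 or SCR 2. It was 1 without BLJ 1 or JKD 3, and the call without JKD 3 was of another member, also lower in BLJ. It was 5 without control 3 or SCR 3. Over all probe sets the 247 calls became between 35 (without BLJ 3) and 577 (without control 3). Between JKD and SCR limma called 0 members (9 at an unadjusted p under 0.05, beside 10.5% of all probe sets) where 0.49% of all probe sets were called (0.308% higher and 0.182% lower in JKD). Without overlap, 8 members were higher and 14 lower in BLJ than in JKD (10.4% and 8.84% of all probe sets), 9 higher and 10 lower in BLJ than in SCR (12.5% and 11.2%), and 6 higher and 3 lower in JKD than in SCR (10.6% and 9.79%).

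UGT74D1 (AT2G31750) is known as a glucosyltransferase of auxin and its oxidized form. It measured 2.24, 2.18 and 2.06 in the control, 1.99, 1.48 and 1.64 in BLJ, 2.81, 2.66 and 2.81 in JKD and 2.40, 3.08 and 2.26 in SCR. The BLJ arrays were below and the JKD and SCR arrays above all 3 controls. The difference was −0.53 ± 0.10 in BLJ against JKD (adjusted p = 0.0144) and −0.45 ± 0.10 against SCR (adjusted p = 0.0379). Against the control neither side was called (BLJ −0.26, adjusted p = 0.158, JKD 0.27, adjusted p = 0.139, and SCR 0.19, adjusted p = 0.344). The BLJ value turned to 0.04 with the deposited values and 0.08 with median-centred arrays, and was −0.41 without the heat-high arrays. The difference from JKD was called in 11 of 12 other settings, among them the one without the heat-high arrays (−0.66, adjusted p = 0.0386). It was lost without BLJ 3, JKD 1 or JKD 3 (−0.60 to −0.46, adjusted p up to 0.0796). The difference from SCR was lost without control 2, BLJ 2, BLJ 3, any JKD array, SCR 1 or SCR 2 (−0.52 to −0.35, adjusted p up to 0.189), on the deposited values (−0.31) and without those 3 arrays (−0.57, adjusted p = 0.0873).

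UGT73B4 (AT2G15490), which like GSTU25 acts on trinitrotoluene or its products, measured 2.66, 2.71 and 1.88 in the control, 1.61, 1.94 and 1.46 in BLJ, 2.82, 3.41 and 2.90 in JKD and 3.51, 3.08 and 2.25 in SCR. The BLJ arrays lay below every JKD and SCR array and overlapped the controls through control 3. The difference was −0.66 ± 0.14 from JKD (adjusted p = 0.0292) and −0.61 ± 0.14 from SCR (adjusted p = 0.0460). The first was lost without BLJ 1, BLJ 3 or any JKD array (−0.73 to −0.59, adjusted p up to 0.165). The second was lost without control 2, BLJ 1, BLJ 3, any JKD array, SCR 1 or SCR 2 (−0.75 to −0.49, adjusted p up to 0.232). It was also lost on the deposited values (−0.50, adjusted p = 0.0791) and with median-centred arrays (−0.48, adjusted p = 0.122). The difference from JKD was called under both of these scalings (−0.72 in each). Without the heat-high arrays the differences were −0.50 and −0.45, neither called.

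GSTU27 and UGT73B1, both lower in BLJ than in the control, were also lower there than in JKD. GSTU27 differed by −0.52 ± 0.10 (adjusted p = 0.0173) and UGT73B1 by −0.30 ± 0.06 (adjusted p = 0.0324). The GSTU27 difference was lost without BLJ 3, JKD 1 or JKD 2 (−0.55 to −0.44, adjusted p up to 0.111) and on the deposited values (−0.55, adjusted p = 0.203), and was −0.61 (adjusted p = 0.0365) without the heat-high arrays. The UGT73B1 difference was lost without BLJ 2, BLJ 3 or any JKD array (−0.33 to −0.26, adjusted p up to 0.135), and was −0.37 (adjusted p = 0.115) without those 3 arrays.

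**Figure D4:**
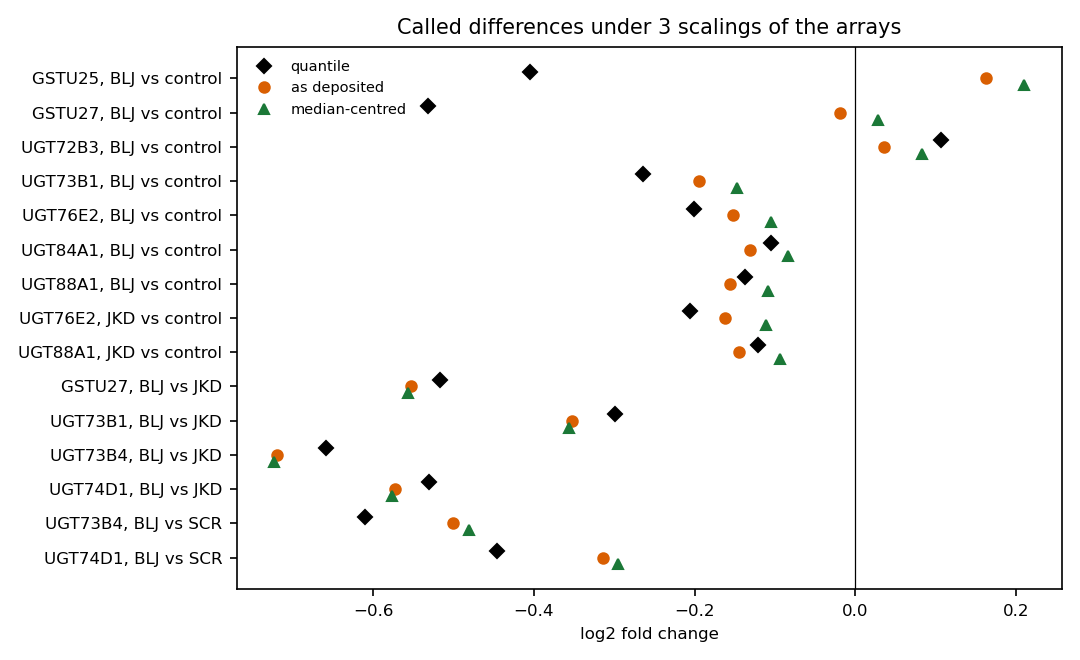
Log2 fold change (x axis) of each of the 15 called differences (y axis) after quantile normalization (diamonds), on the deposited values (circles) and with arrays centred on their medians (triangles). GSTU25 in BLJ against the control moves from −0.40 to 0.16 and 0.21 and GSTU27 from −0.53 to −0.02 and 0.03, while the 6 differences between lines stay below 0.

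Further UGTs with known hormone or metabolite acceptors had the following fold changes against the control, and none was called. The cytokinin N-glucosyltransferases UGT76C1 (AT5G05870) and UGT76C2 (AT5G05860) had −0.02 and −0.03 in BLJ, −0.04 and −0.09 in JKD and −0.02 and −0.06 in SCR. UGT74F1 (AT2G43840), a salicylic acid glucosyltransferase, had −0.08 in BLJ, −0.10 in JKD (adjusted p = 0.0940) and −0.09 in SCR. UGT71C5 (AT1G07240), which makes the glucose ester of abscisic acid, had 0.02, −0.07 and −0.08, and the sterol glucosyltransferase UGT80B1 (AT1G43620) had −0.05, −0.05 and −0.06. UGT74B1 had 0.07 in JKD and −0.01 in SCR, and with median-centred arrays it was called in JKD (0.24, adjusted p = 0.0425).

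Many members lie next to one another in the genome. In the RefSeq annotation of TAIR10.1, 38 of the 59 fell into 15 clusters with at most 10 genes between neighbours, and 21 stood alone. Some neighbours had different values, and others were alike, such as UGT76C1 and UGT76C2 (−0.02 and −0.03 in BLJ). How often neighbours differ was not tested. GSTU25 (−0.40 in BLJ, called) lies directly beside GSTU26 (0.19), which measured 19.9, 21.7 and 24.0 in the control and 25.3, 24.3 and 25.3 in BLJ. Both lay above 0 with the deposited values (0.16 and 0.74) and with median-centred arrays (0.21 and 0.78). GSTU22 (−0.84 in BLJ) lies in a run with GSTU21 and GSTU20, both at 0.00. UGT76E2 (−0.20 in BLJ) has UGT76E1 (AT5G59580, −0.02) as its neighbour, and UGT84A1 (−0.10) precedes UGT84A3 (AT4G15490, −0.03) and UGT84A4 (AT4G15500, 0.02). GSTU21, GSTU20, UGT76E1 and UGT84A3 lay below the median probe set, with control means of 0.758, 0.809, 0.754 and 0.825. The offset understates changes at such low levels. UGT73B5 and UGT73B4 are adjacent and had −0.23 and −0.39. Whether the probe sets of such close relatives share transcripts was not tested, and all 59 member probe sets carry the plain suffix of the platform.

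Few genes that supply or regulate these enzymes could be named. Of 90 genes listed for glutathione synthesis and recycling, conjugate transport, xenobiotic regulation, first-step oxidation, UDP-sugar synthesis and acceptor synthesis, 4 had a named probe set, and none was called in a line against the control. The glutathione reductase GR1 (AT3G24170) measured 5.68, 5.26 and 6.42 in the control, 4.99, 4.66 and 6.01 in BLJ and 7.05, 6.94 and 7.82 in JKD, so that every JKD array was above every control. Its log2 fold change was −0.13 in BLJ, 0.30 in JKD (adjusted p = 0.185) and −0.02 in SCR. The second reductase, GR2 (AT3G54660), had −0.15 in BLJ (adjusted p = 0.0841), −0.03 in JKD and −0.08 in SCR. The alkenal reductase AER (AT5G16970) had −0.08, −0.04 and −0.02, and the UDP-sugar pyrophosphorylase USP (AT5G52560) had 0.04, −0.10 and 0.04.

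**Figure D5:**
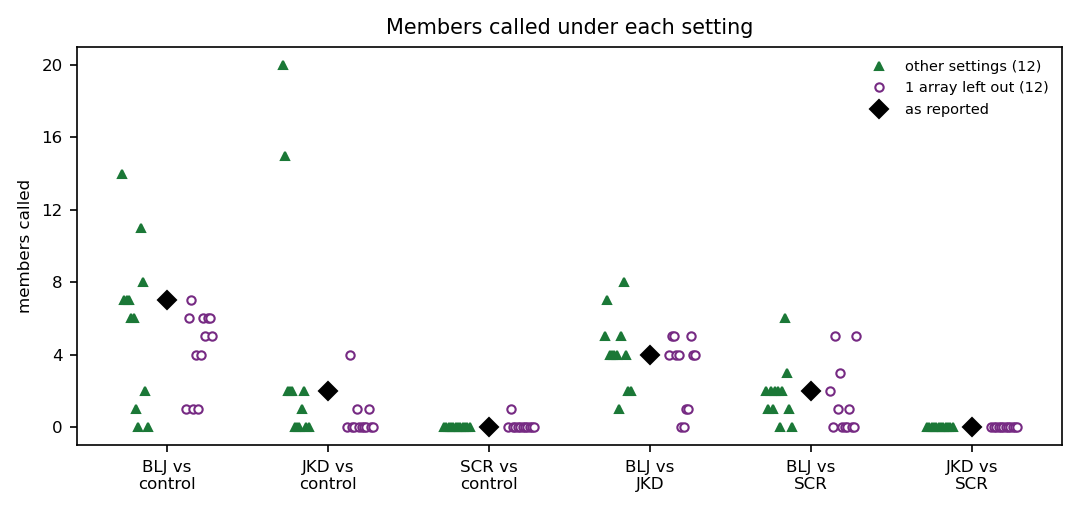
Number of members called (y axis) in each of the 6 comparisons (x axis) as reported (diamonds), under 12 other settings (triangles) and with each of the 12 arrays left out (circles). Calls in BLJ against the control run from 0 to 14 and in JKD from 0 to 20, and those in SCR against the control and in JKD against SCR stay at 0 or 1.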

How the data were processed

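RNA of sorted root cells was measured on 12 single-colour ATH1 arrays. The deposited table gives, for every probe set, a linear intensity on each array, made by the authors with MAS5 per the submitters' processing notes. For the version, background correction and scaling, as for which array had which of the 2 labelling protocols named in the labels, the answer is not given in the sources used here. Of the deposited values 66.1% were below 1, and their centring is unknown. On the log2 scale their SD was 0.68 to 0.70 in the control, 0.87 to 0.97 in BLJ, 0.81 to 1.0 in JKD and 0.90, 0.67 and 0.90 in SCR.

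The 55 control probe sets were left out and arrays were quantile-normalized. An offset of 0.703, at percentile 20 of the normalized values, was added before log2, and the dimmest 30% of probe sets by mean were dropped, leaving 15922 of 22746. limma 3.58.1 in R 4.3.3 fitted 1 mean per group over all 12 arrays with trend and robust moderation, with Benjamini-Hochberg adjustment over all probe sets tested. Every adjusted p is from this test. The fit was tested on simulated data. The values give no read depth, and 3 arrays per group limit the precision.

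Groups came from the titles, and 0 columns were unused. Names came from the platform table, and all 59 members matched RefSeq (TAIR10.1), used only for names and gene order. The rule named every called member, the 3 highest and 3 lowest UGTs and GSTs in each comparison with the control, members with well known acceptors, and called genes of the supply lists. UGT73B5, UGT73C7, UGT71C4, the genomic neighbours, GR1, GR2, AER, USP and the untested members were named outside that rule after values were seen. The members, lists and tests were chosen with earlier results of these data known. The heat shock list was the third tried, since the first held 1 and the next 2 named genes, and its loci were set after an earlier analysis had pointed to those arrays.

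Alternatives were other scalings, offsets, filters and floors, fits of 6 arrays, a replicate block, plain moderation and left-out arrays.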

Additional observations from a re-analysis of the deposited data

Results flagged for a closer look

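In 4 members the effect of 1 line against the shared control differed from that of another by limma's test of the difference itself (log2 scale, n = 3 arrays per line). Between BLJ and JKD the differences were −0.52 for GSTU27, −0.30 for UGT73B1, −0.66 for UGT73B4 and −0.53 for UGT74D1, with adjusted p of 0.0173, 0.0324, 0.0292 and 0.0144. Between BLJ and SCR they were −0.61 for UGT73B4 and −0.45 for UGT74D1, with adjusted p of 0.0460 and 0.0379. In all of them every BLJ array lay below every array of the other line. Neither difference from SCR, nor that of GSTU27 from JKD, was called on the deposited values or with median-centred arrays.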

How the results depend on the processing

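In BLJ, JKD and SCR against the control the counts were 7, 2 and 0, beside 678, 437 and 63 over all probe sets. Deposited values gave 14, 20 and 0, beside 2940, 4016 and 62. Median-centred arrays gave 7, 15 and 0, beside 2528, 3847 and 51. Intensities under 1 set to 1 gave 1, 0 and 0, beside 47, 2 and 2. Only the 6 arrays compared gave 0, 0 and 0, beside 37, 12 and 0. Neither trend nor robust moderation gave 2, 0 and 0, beside 372, 150 and 5. The fit without control 3, BLJ 1 and BLJ 3 leaves 1 BLJ array, so its counts are not set beside these. With the dimmer 50% of probe sets left out JKD had 0, beside 146 of 11373 probe sets. BLJ against JKD (4) had 7 after median centring, 1 with the floor at 1 and 2 with plain moderation. Over all probe sets these settings called 310, 97 and 216. BLJ against SCR (2) had 1 after median centring, 1 with offset 2, 0 with the floor and 1 with plain moderation. Over all probe sets these called 352, 234, 44 and 144. Median centring and plain moderation each called a member other than the 2 reported. With 1 array left out the counts were 1 to 7, 0 to 4 and 0 to 1 against the control, 0 to 5 for BLJ against JKD and for BLJ against SCR, and 0 for JKD against SCR.

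Against the control, the following signs differed from the reported one where either of the values compared was called. GSTU25 in BLJ had 0.16 on the deposited values and 0.21 median-centred. GSTU27 had 0.028 median-centred in BLJ, and 0.53 deposited and 0.58 median-centred in JKD. In addition, UGT71C1 in BLJ was called on the deposited values (0.40) and median-centred (0.45), and had −0.04 without control 3, BLJ 1 and BLJ 3. Among 22 named members, called or not, 8 in BLJ, 7 in JKD and 8 in SCR turned sign against the control with the deposited values or with median-centred arrays. The cause was not tested. The median over all probe sets moved to at most 0.07 under median centring. The gene alternative with every probe set was not run, since each member has 1.

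Replicate numbers are shared by the groups, but only 12 of 18 same-numbered pairs correlated above 0.1 (−0.19 to 0.62, median 0.22, against −0.14 for other pairs), so they were not taken as pairs. Of 12 arrays, 7 correlated best with one of their own number. As a fixed block they gave 11, 1 and 0 calls against the control, 8 for BLJ against JKD, 6 for BLJ against SCR and 0 for JKD against SCR. Over all probe sets these counts were 804, 525, 205, 529, 639 and 143. Of the named members, against the control, the fixed block added GSTU22 (adjusted p = 0.00921), UGT73B4 (0.0364) and UGT76B1 (0.025) in BLJ and lost UGT88A1 in JKD (0.0582). As a random block (consensus correlation 0.048) they gave 8, 2, 0, 4, 3 and 0.

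Limits are the 3 arrays per group, intensities close to the lowest values for many members, unknown centring and the absence of detection calls from the table.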

Other observations

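Some genes of the same families carry other names on the platform and fell outside the rule. Of 5 found by locus, 4 were tested and 0 were called in a line against the control. UGT72B1 (AT4G01070, listed as GT72B1) measured 6.05, 5.92 and 7.87 in the control and 8.57, 5.46 and 7.50 in BLJ, and its log2 fold change was 0.10 in BLJ, 0.03 in JKD and 0.03 in SCR. UGT79B1 (AT5G54060, listed as UF3GT), an anthocyanin xylosyltransferase, had −0.05, −0.06 and −0.03. UGT80A2 (AT3G07020, listed as SGT), a sterol glucosyltransferase like UGT80B1, had −0.06, −0.07 and −0.03.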
